A study of Mus musculus with 4 samples.

Results

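Ms4a1, Cd79a, Cd79b, Pax5, Cr2, Fcer2a, Bcl6 and Cd22 are 8 genes of B cells and germinal centres, and each was found by its symbol in 1 row of the 56748 genes of the deposited table. They were read in the small intestine (SI) of 2 genotypes, WT and p53-/-, collected 1 day after total-body irradiation (TBI) with 12 Gy, with 2 libraries each. The p53-/- mice lack p53 in every cell, lymphocytes included, and all 4 libraries come from irradiated mice, so the genotype difference without radiation was not analysed here. The study's methods give age- and gender-matched mice from the Jackson Laboratory. The libraries are called by the numbers in their column names, 7 and 8 for WT and 9 and 10 for p53-/-, and these numbers pair no animals.

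B cells recognise antigen through a membrane antibody that signals through the CD79A and CD79B chains. Naive B cells gather in follicles, which in the SI form the Peyer's patches and isolated lymphoid follicles, and an activated follicle builds a germinal centre in which B cells divide and edit their antibody genes. Plasma cells, the end stage of the lineage, lie in the lamina propria, secrete IgA, and lose most of the surface genes of B cells. Lymphocytes are among the most radiosensitive cells of the body. In bulk tissue, fewer cells of a type and less RNA per cell cannot be told apart.

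The libraries held 15005479 to 22173164 counts. Trp53, the gene that was knocked out, was at 57.7 and 47.0 CPM (counts scaled to library size after TMM normalisation) in WT and at 19.8 and 22.5 CPM in p53-/-. Its log2 fold change was -1.31 (edgeR adjusted p = 0.0602). Here and below, p-values labelled edgeR come from its quasi-likelihood fit and are adjusted over the 16094 genes with enough counts. Listed genes of the intestinal epithelium summed to 21730 to 30540 CPM per library, and 10 of 10 were over the floor of 3 counts. The lowest of them, Lct, was at only 0.497 to 0.989 CPM. Library 10 stood apart from the other 3. Its count of Xist, the RNA that coats the silenced X in female cells, was 588 against 2, 0 and 4 in libraries 7, 8 and 9, while 4 Y-linked genes were between 19.1 and 37.8 CPM in all of them. The 18S ribosomal RNA gene Rn18s-rs5 took 4.59% of the counts of library 10 and 0.296% to 0.863% of the others. The 8 genes are therefore given library by library, with library 9 alone or library 10 left out beside their fold changes and beside the medians of the B cell and plasma cell lists, and the part of the Xist and 18S differences in the results was not tested.

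Apart from Bcl6, the B cell genes were close to absent from the WT SI, present at low levels in p53-/- library 9 and abundant in p53-/- library 10. The 7 genes other than Bcl6 had 35 and 47 counts together in the WT libraries, 551 in library 9 and 9262 in library 10. That was 2.16, 3.05, 24.1 and 460.0 CPM in libraries 7, 8, 9 and 10. For each of them the lower p53-/- library was above the higher WT library. Of all tested genes, which leave out Cr2, 26.4% showed this pattern. By fold, library 10 over library 9 exceeded library 9 over the WT mean for each gene with WT counts over the floor except Cd79a.

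**Figure D1:**
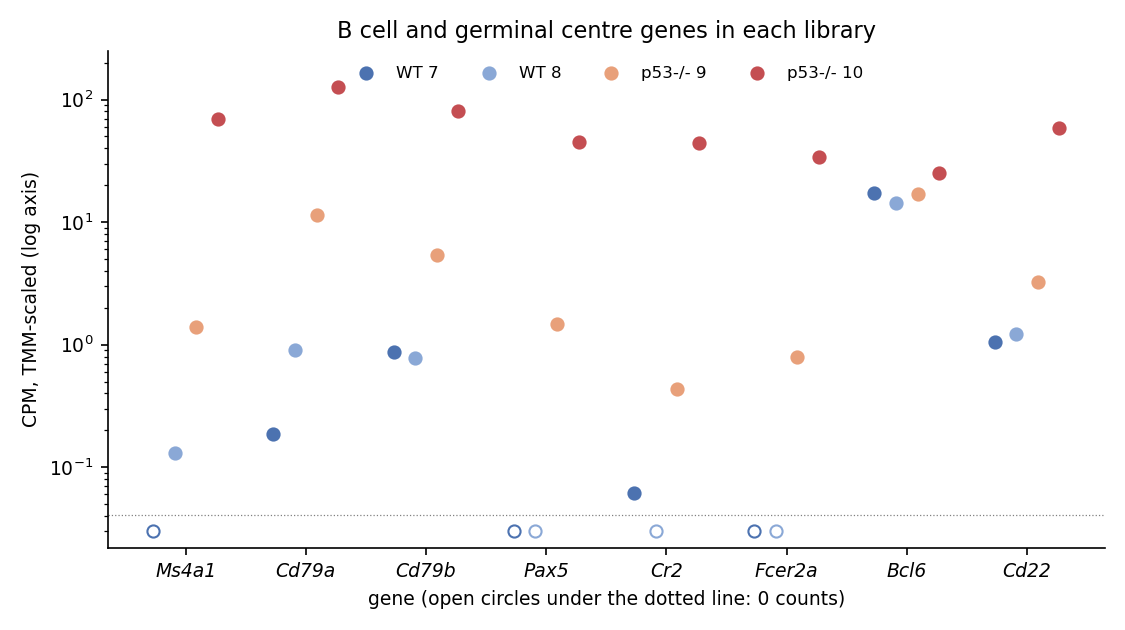
Level of each of the 8 genes in each library, in CPM on a log axis, with 1 point per library and open circles for 0 counts. Library 10 is highest for every gene, from 25.0 CPM for Bcl6 to 127 CPM for Cd79a, and Bcl6 alone has overlapping genotypes.

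Cd79a and Cd79b encode the signalling pair of the B cell receptor. Cd79a had 3 and 14 counts in the WT libraries, 259 in library 9 and 2563 in library 10, or 0.185, 0.907, 11.3 and 127 CPM. Its mean was 0.546 ± 0.51 CPM in WT and 69.3 ± 82.0 CPM in p53-/- (SD, n = 2), and the SD of the p53-/- libraries exceeded their mean. The log2 fold change was 6.99 (edgeR adjusted p = 0.113, standard error 1.48). With library 10 left out it was 4.39 (edgeR adjusted p = 0.588), and with WT library 7 left out 6.25. With WT library 8 left out, WT was at the floor of 3 counts and the log2 lower bound was 8.55. Cd79b had 14 and 12 counts in WT, 124 in library 9 and 1620 in library 10, or 0.865, 0.777, 5.43 and 80.5 CPM. Its log2 fold change was 5.69 (edgeR adjusted p = 0.140, standard error 1.39), and 2.76 with library 10 left out. The genotypes did not overlap for either chain. Library 9 stood 20.8-fold over the WT mean for Cd79a and 6.61-fold for Cd79b.

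Ms4a1 encodes CD20, a surface protein of B cells that is absent from plasma cells, and Cd22 encodes an inhibitory co-receptor that dampens the receptor's signal. Ms4a1 had 0 and 2 counts in the WT libraries, 32 in library 9 and 1408 in library 10. Both WT libraries were at or under the floor of 3 counts, so only a lower bound can be given, with 3 counts set for each. Ms4a1 was at least 188-fold higher in the p53-/- mean, at least 7.38-fold in library 9 and at least 368-fold in library 10. Cd22 had 17 and 19 counts in WT, 74 in library 9 and 1178 in library 10, or 1.05, 1.23, 3.24 and 58.5 CPM. Library 9 was 2.84-fold over the WT mean, and the log2 fold change was 4.75 (edgeR adjusted p = 0.178, standard error 1.38) with both p53-/- libraries and 1.55 with library 10 left out.

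Pax5 is the transcription factor that commits a cell to the B lineage and is shut off in plasma cells. It had 0 counts in both WT libraries, 34 in library 9 and 914 in library 10. Against 3 counts in each WT library it was at least 123-fold higher in the p53-/- mean and at least 7.84-fold higher in library 9. The antisense transcript Gm12462, which shares 125 exonic bases with Pax5 in the GENCODE M21 annotation, had 9 counts in library 10 and 0 in the others.

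Cr2 encodes the complement receptors CD21 and CD35 of mature B cells and follicular dendritic cells, and Fcer2a encodes CD23, the low-affinity IgE receptor of follicular B cells. Cr2 had 1 and 0 counts in the WT libraries, 10 in library 9 and 894 in library 10. It was the only one of the 8 genes that did not pass the filter on low counts, since library 9 was too low, and it has no test. Its bound was at least 118-fold in the p53-/- mean and at least 2.30-fold in library 9. Fcer2a had 0 counts in both WT libraries, 18 in library 9 and 685 in library 10, at least 91.7-fold higher in the mean and at least 4.15-fold higher in library 9. Nearly all of the reads of both genes came from library 10.

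Bcl6 encodes the transcriptional repressor that drives the germinal centre program, and many other cell types express it. It had 280 and 222 counts in WT, 389 in library 9 and 504 in library 10. These were 17.3, 14.4, 17.0 and 25.0 CPM, with library 9 between the WT libraries. The mean was 15.8 ± 2.06 CPM in WT and 21.0 ± 5.66 CPM in p53-/- (SD, n = 2), a log2 fold change of 0.41 (edgeR adjusted p = 0.523, standard error 0.280). With library 10 left out it was 0.15. Bcl6 was thus the one gene of the 8 whose genotypes overlapped, and the difference was not larger than the spread between libraries.

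In edgeR's quasi-likelihood fit, 7 of the 8 genes had enough counts and 0 passed an adjusted p of 0.05 in either direction, against 0.298% of all tested genes called higher and 0.193% called lower. Before adjustment, 6 were higher with a p under 0.05, as were 10% of all tested genes. DESeq2 called 5 (Cd79a, Cd79b, Ms4a1, Pax5 and Cd22), against 5.47% of the genes it tested called higher. With edgeR's likelihood ratio test 6 were called, against 5.18%. Bcl6, Cd79b and Cd22 had at least 10 counts in every library, while Ms4a1, Cd79a, Pax5 and Fcer2a passed the filter on low counts only with the p53-/- libraries, so the number called is a description. The median log2 change of the 8, with the 4 genes at the floor in WT set to their bound, was 6.70, and it was 2.43 with library 10 left out. The median over all tested genes was -0.00843. With 2 libraries against 2, an exact permutation test of a single gene cannot give a two-sided p below 0.333.

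Between genes, levels were compared per kilobase of gene length, taken as the union of all annotated exons. In library 10, Cd79a led with 87.4 CPM per kilobase, followed by Cd79b with 56.2. Cd22, Ms4a1 and Fcer2a came next, between 11.0 and 11.6, and their order was not resolved. Cr2 had 5.47, Pax5 5.13 and Bcl6 3.74 on the same scale. In the WT libraries Bcl6 was highest, with 2.58 and 2.15 CPM per kilobase. Cd79b was second in library 7 (0.605 CPM per kilobase, against 0.127 for Cd79a) and Cd79a in library 8 (0.623, against 0.543 for Cd79b). Cd22 was at 0.208 and 0.244 CPM per kilobase, while Ms4a1, Pax5, Cr2 and Fcer2a were at 0.0209 or less.

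The 5′ flanks of 6 of the 8 genes were found among the RefSeq promoters of build GRCm38.p6, each a window of 300 bases around a transcript start. Most of the genes were high together in library 10, so 4 flanks are shown here: Cr2 and Bcl6, with the largest and the smallest ratio of library 10 to library 9, and Cd79a and Cd22, whose single flank held a searched motif. Bcl6 had 2 flanks in the table, and the one shown is the upstream one. Capitals mark matches on either strand to the octamer ATGCAAAT, the EBF motif CCCNNGGG, the E2A box CAGCTG, the PU.1 core GAGGAA and the BCL6 motif TTCCTNGAA.
Cr2, chr1:195176670-195176969, minus strand: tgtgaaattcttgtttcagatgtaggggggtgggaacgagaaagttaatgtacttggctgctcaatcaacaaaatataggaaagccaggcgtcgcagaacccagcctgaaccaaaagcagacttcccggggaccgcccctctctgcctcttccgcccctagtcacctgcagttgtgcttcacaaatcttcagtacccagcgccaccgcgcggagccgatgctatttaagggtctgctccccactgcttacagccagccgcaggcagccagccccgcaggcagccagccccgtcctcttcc
Cd79a, chr7:24897247-24897546, plus strand: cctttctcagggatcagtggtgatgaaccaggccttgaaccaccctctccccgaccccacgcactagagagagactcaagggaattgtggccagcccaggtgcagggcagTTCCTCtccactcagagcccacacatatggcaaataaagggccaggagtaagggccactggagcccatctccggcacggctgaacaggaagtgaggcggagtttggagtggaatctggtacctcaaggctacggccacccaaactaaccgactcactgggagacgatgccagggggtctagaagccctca
Cd22, chr7:30878979-30879278, minus strand: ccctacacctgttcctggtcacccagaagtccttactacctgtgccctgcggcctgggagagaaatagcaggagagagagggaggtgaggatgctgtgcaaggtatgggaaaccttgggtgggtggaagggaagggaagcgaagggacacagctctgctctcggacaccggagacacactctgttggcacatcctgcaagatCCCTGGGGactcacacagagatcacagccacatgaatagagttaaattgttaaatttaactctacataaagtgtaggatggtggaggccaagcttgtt
Bcl6, chr16:23988803-23989102, minus strand: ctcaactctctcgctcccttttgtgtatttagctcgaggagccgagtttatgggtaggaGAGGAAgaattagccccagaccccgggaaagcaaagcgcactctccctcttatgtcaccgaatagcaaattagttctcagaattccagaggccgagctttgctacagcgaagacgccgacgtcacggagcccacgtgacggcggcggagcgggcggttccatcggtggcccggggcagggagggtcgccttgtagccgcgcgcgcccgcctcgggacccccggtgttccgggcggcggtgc
The PU.1 core was in the flanks of Cd79a and Bcl6, and 28.3% of all 32851 promoters of this length held it. The EBF motif was in that of Cd22 (13.7% of all promoters). The other flank of Bcl6 held the BCL6 motif (1.59% of all promoters), and 1 of the 3 flanks of Fcer2a held the E2A box (16.3%). None of the 5 motifs was in the flank of Cr2. Over the 9 flanks of the 6 genes, the octamer was found in 0 (1.74% of all promoters). These matches are letters in a window and do not show binding.

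The libraries of one genotype were then compared gene by gene, with exact binomial 95% intervals that cover counting error only. Cr2 was 102-fold higher in library 10 than in library 9 (interval 54.9 to 212). Ms4a1 followed at 49.9-fold (35.2 to 73.3), Fcer2a at 43.2-fold (27.1 to 73.3) and Pax5 at 30.5-fold (21.7 to 44.3). Cd22 was at 18.1-fold, Cd79b at 14.8-fold and Cd79a at 11.2-fold (9.88 to 12.8), below the first 4 with intervals that did not overlap theirs for Cd79a and Cd79b. Bcl6 was 1.47-fold higher (1.29 to 1.68). Between the WT libraries, library 8 was 1.17-fold over library 7 for Cd22 (0.577 to 2.40), 0.899-fold for Cd79b (0.380 to 2.09) and 0.831-fold for Bcl6 (0.694 to 0.995). For Cd79a it was 4.89-fold over library 7, where 3 and 14 counts gave an interval of 1.37 to 26.6 that includes the 11.2-fold of the p53-/- libraries. The other 4 genes were at or under the floor in both WT libraries and give no WT ratio.

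**Figure D2:**
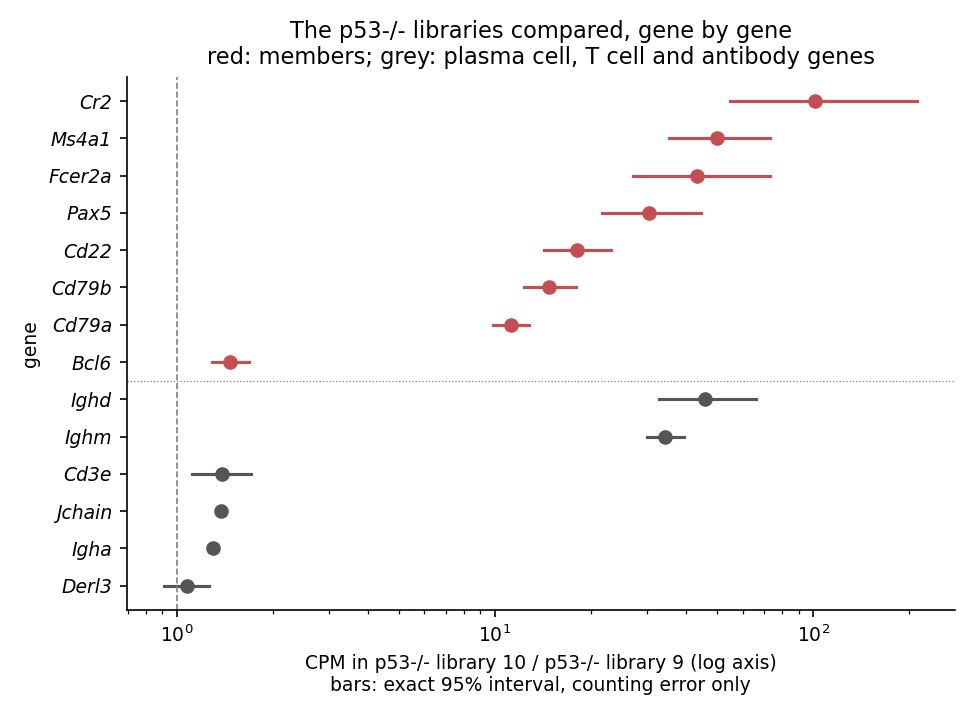
Ratio of CPM in p53-/- library 10 to that in p53-/- library 9 on a log axis, with exact 95% intervals for counting error, for the 8 genes (red) and for 6 antibody, plasma cell and T cell genes (grey). Cr2 is at 102-fold and Bcl6 at 1.47-fold, Ighd and Ighm lie among the B cell genes, and Igha, Jchain and Derl3 lie near 1.

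The 8 genes therefore did not keep a fixed proportion to each other in the p53-/- libraries. For every 100 reads of Cd79a, library 9 had 12.4 reads of Ms4a1 (exact interval 8.28 to 17.9) and library 10 had 54.9 (51.4 to 58.6). Cr2 was at 3.86 reads per 100 of Cd79a in library 9 (1.83 to 7.22) and at 34.9 in library 10 (32.3 to 37.7). Fcer2a was at 6.95 and 26.7, and Pax5 at 13.1 and 35.7. Ms4a1, Cr2, Fcer2a and Pax5 thus had fewer reads per read of Cd79a in library 9 than in library 10. Cd79b differed least, at 47.9 (38.3 to 59.5) and 63.2 (59.4 to 67.3), with intervals that overlapped by a narrow margin. Bcl6 went the other way, from 150 reads per 100 of Cd79a in library 9 to 19.7 in library 10.

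**Figure D3:**
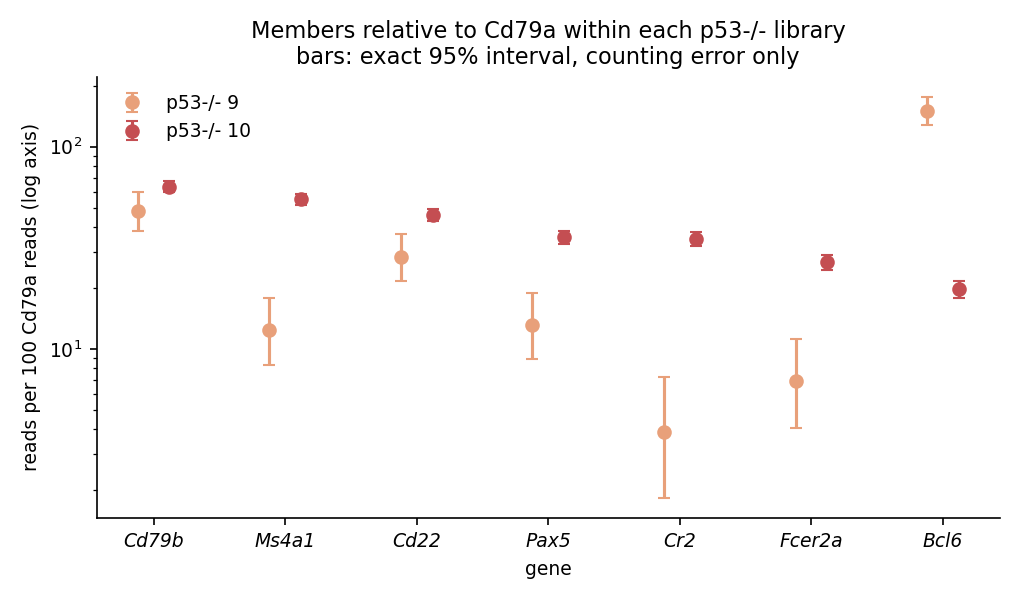
Reads of 7 genes per 100 reads of Cd79a in p53-/- libraries 9 and 10, on a log axis, with exact 95% intervals for counting error. Ms4a1, Cd22, Pax5, Cr2 and Fcer2a are higher beside Cd79a in library 10, and Bcl6 is higher in library 9.

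Antibody genes were read beside the 8. Ighm and Ighd encode the heavy chains of IgM and IgD, which naive B cells carry on their surface. Ighd, picked with its values known, was at 3 and 1 counts in WT, 35 in library 9 and 1415 in library 10, a ratio of library 10 to library 9 of 45.9 (32.8 to 66.1). Ighm was 34.2-fold higher in library 10 than in library 9. Igha, the heavy chain of IgA, was at 211 and 927 CPM in WT and at 5291 and 6859 CPM in p53-/-, and was only 1.30-fold higher in library 10. Jchain, which joins IgA molecules, was 1.38-fold higher there. Per 100 reads of Cd79a there were 9129 reads of Jchain in library 9 and 1119 in library 10. The plasma cell list has 12 genes, Ighm and Ighd included. Of these, 11 were above both WT libraries in both p53-/- libraries, against 26.4% of all tested genes. Without Ighm and Ighd this held for 9 of 10, with a median log2 change of 3.30, and of 3.16 with library 10 left out. Derl3, of the protein quality control of the endoplasmic reticulum, passed the threshold (edgeR adjusted p = 0.0424, log2 fold change 3.19), and without library 10 it did not (edgeR adjusted p = 0.452, log2 fold change 3.19).

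The wider B cell lists were written by hand and are described by counts. None of their genes passed the threshold in edgeR's quasi-likelihood fit. Their counts below stand beside 10% of all tested genes higher at an unadjusted p under 0.05 and 5.47% called higher by DESeq2. Among 16 genes of B cell receptor signalling, 12 were higher and 1 was lower at an unadjusted p under 0.05, DESeq2 called 9 higher, and the median log2 change was 1.75, or 1.02 with library 10 left out. Most of these kinases and adaptors also work in other cells. The most abundant, Cd81, a tetraspanin, was at 112 and 118 CPM in WT and 78.0 and 80.3 CPM in p53-/-. Syk was at 106 and 67.1 against 47.4 and 97.3 CPM. Lyn was at 39.5 and 46.3 against 102 and 113 CPM, and Pik3ap1 at 46.4 and 74.0 against 112 and 108 CPM. The ratio of library 10 to library 9 was 1.10 for Lyn and 0.964 for Pik3ap1. Blk, a kinase of B cells that was picked with its values known, had 0 counts in both WT libraries, 16 in library 9 and 535 in library 10.

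Of 12 transcription factors of the B lineage, 9 had an unadjusted p under 0.05, all higher, and DESeq2 called 8. Their median log2 change was 2.75, and 1.21 with library 10 left out. Irf8, shared with myeloid cells, was at 85.6 and 79.4 CPM in WT and at 166 and 224 in p53-/-. Ets1 was at 9.33 and 15.6 against 31.8 and 85.1, while Tcf3 (70.9 and 54.0 against 69.5 and 87.5) and Foxo1 (44.4 and 42.1 against 29.7 and 45.3) had overlapping genotypes.

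Of 20 other surface genes of B cells found in the table, 18 could be tested. All 18 had an unadjusted p under 0.05 and were higher, DESeq2 called 16, and the median log2 change of the 20 was 5.01. With library 10 left out it was 2.52 over the 19 genes with a value. Cd74, the invariant chain of MHC-II, was the most abundant, at 166 and 328 CPM in WT and 2232 and 3537 CPM in p53-/-. Its ratio of library 10 to library 9 was 1.585. The paper reports MHC-II on intestinal epithelial cells too, and which cells gave the Cd74 reads was not tested. Cd38, an ectoenzyme that other cells also carry, was at 154 and 134 against 548 and 384, with library 9 above library 10. Cd37 was at 1.05 and 1.49 against 5.95 and 70.0 CPM, and Cd83 at 2.60 and 2.33 against 4.86 and 58.7 CPM. Over the list, library 10 exceeded library 9 for 19 of 20 genes, with a median ratio of 13.5 over the 19 genes above the floor in library 9.

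The germinal centre list also holds genes that other cells express, and the part of those cells was not tested. Of 18, 15 could be tested and 8 had an unadjusted p under 0.05, all higher, and DESeq2 called 6. The median log2 change of the 18 was 1.84, and 0.74 with library 10 left out, over the 17 with a value. The most abundant, Gna13 and Efnb1, were lower in both p53-/- libraries than in both WT libraries, at 235 and 228 against 212 and 184 CPM for Gna13 and 212 and 183 against 175 and 135 CPM for Efnb1. Mki67, a gene of dividing cells, was at 55.8 and 37.4 CPM in WT and at 138 and 136 CPM in p53-/-, with the p53-/- libraries alike. Ezh2 was at 26.6 and 21.8 against 31.7 and 35.2 CPM.

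Of 20 follicle stroma and T follicular helper genes, 11 were above both WT libraries in both p53-/- libraries, against 26.4% of all tested genes. The 11 include genes too low to test, such as Il21 and Cd40lg, while the 26.4% covers tested genes only. Library 10 exceeded library 9 for 18 of the 20. Of the 20, 13 could be tested and 7 had an unadjusted p under 0.05, 6 higher and 1 lower, and DESeq2 called 4 higher. The median log2 change was 2.66, and 0.59 with library 10 left out, over the 19 with a value. Tnfsf13b, which encodes the B cell survival factor BAFF and was picked with its values known, was at 22.9 CPM in library 9 and 16.8 CPM in library 10. Cxcl13, the chemokine that draws B cells into follicles, had 11 and 11 counts in WT, 45 in library 9 and 1545 in library 10. Clu, which follicular dendritic cells and several epithelia express, was at 12.8, 32.5 and 14.8 CPM in libraries 7, 8 and 9 and at 362 CPM in library 10. For Clu, library 9 thus lay within the WT range. Ccl21a (7.85 and 30.3 against 15.3 and 34.8 CPM) had overlapping genotypes, and Ltbr (186 and 143 against 124 and 103 CPM) was lower in both p53-/- libraries. Gp2, a marker of the M cells over follicles, was picked with its values known. It had 7, 5 and 5 counts in libraries 7, 8 and 9 and 217 in library 10. The list of M cell and follicle epithelium genes has 10 genes, 9 of them above the floor in library 9. Over these 9 the median ratio of library 10 to library 9 was 1.28.

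**Figure D4:**
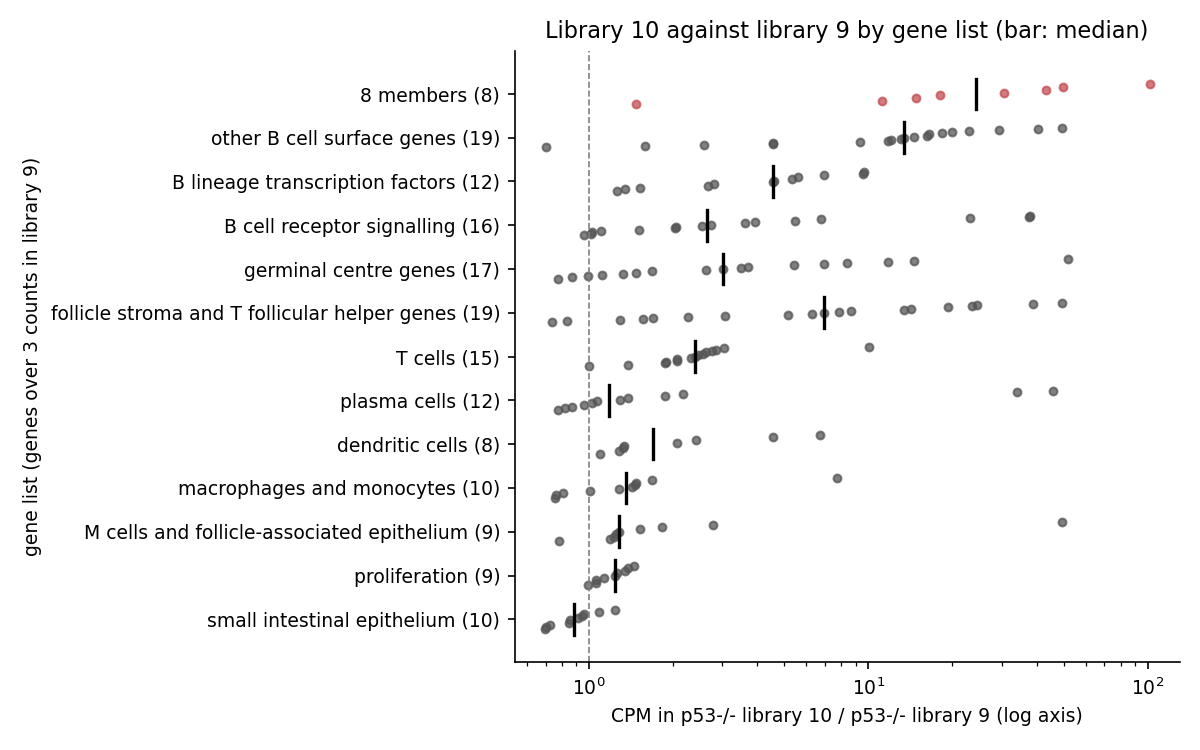
Ratio of CPM in p53-/- library 10 to that in library 9 for genes over 3 counts in library 9, by gene list, on a log axis, with 1 point per gene and a bar at the median. The median is 13.5 for other B cell surface genes, 4.57 for B lineage transcription factors, 2.40 for T cells, 1.19 for plasma cells and 0.886 for epithelium.

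Markers of other cells were read the same way. All 15 T cell genes were above WT in both p53-/- libraries, against 26.4% of all tested genes. Their sums were 9.95 and 19.7 CPM in WT and 99.1 and 206 CPM in p53-/-. Their median ratio of library 10 to library 9 was 2.40. Summed macrophage and monocyte genes were at 94.5 and 230 CPM in WT and 296 and 729 CPM in p53-/-. Of these sums, Lyz2 alone held 53.1 CPM in library 9 and 410 CPM in library 10. Over the 10 genes of that list the median ratio of library 10 to library 9 was 1.36. Summed dendritic cell genes were at 3.52 and 15.2 against 29.1 and 52.2 CPM, with a median ratio of 1.70. Red blood cell genes summed to at most 6.21 CPM, with Alas2 at 3 counts or fewer in every library. Summed epithelial genes were at 30540 and 24370 CPM in WT and 22080 and 21730 CPM in p53-/-. The part of these cell types in the levels of the B cell genes was not tested.

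The genes whose pattern over the 4 libraries lay nearest to the median of the 8 were sought among 13991 protein-coding genes, by the distance between centred log2 CPM values. The 4 nearest that are named here were Chst3, Blk, Tnfrsf13c and Fcmr, at distances of 0.373 to 0.94. Chst3, a carbohydrate sulfotransferase, had 1 and 1 counts in WT, 28 in library 9 and 818 in library 10. Tnfrsf13c encodes the BAFF receptor. Bcl6 lay farthest from the median profile of the 8, at a distance of 5.69, against 1.83 or less for the other 7. The genes nearest to Bcl6 were Csk, Magoh and Apex2, with distances of 0.0274 to 0.0463 and log2 fold changes of 0.41 to 0.46.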

How the data were processed

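Poly-A selected RNA of irradiated small intestine was sequenced in 4 libraries, 2 per genotype. The deposited table holds the authors' raw read counts for each gene, not normalised. The submitters' processing notes name fastp, HISAT2 2.0.5, featureCounts 1.5.0-p3 and DESeq2 1.20.0. Build, annotation and strand of counting are not given in the sources used here, so reads of antisense and overlapping genes cannot be told apart, and the table's gene coordinates are not printed. Within each genotype the libraries differed beyond sampling noise (chi-square per degree of freedom 48.0 and 69.5). Whether they came from separate animals is stated only for the study as a whole, and otherwise p-values measure the spread between libraries.

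Counts were scaled by TMM and low genes removed by filterByExpr. The 16094 remaining genes were tested between genotypes with edgeR 4.0.16 (quasi-likelihood, two-sided, Benjamini-Hochberg, threshold 0.05) in R 4.3.3. Alternatives were DESeq2 1.42.0, edgeR's likelihood ratio test, other scalings and filters, antigen receptor segments left out, and each library left out. The tests were tried on simulated counts with the same dispersion for every gene. That run does not show how they behave under the spread between these libraries. Ratios of libraries used exact binomial intervals (scipy 1.17.1), for counting error only. Lengths and overlaps came from GENCODE M21. Named genes were the 8, list genes past the threshold, the 4 most abundant of each list, Xist and the nearest profiles. The genes and lists were chosen with earlier results of these data known. Some genes that these rules name are not reported here.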

Additional observations from a re-analysis of the deposited data

How the results depend on the processing

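No paired analysis was possible because the columns of the table carry no replicate numbers of the labels. The direction of the 8 genes held under each alternative that gave a value. Cd79a had none with at least 10 counts in every library, and Cr2 was tested only without a filter. Of 95 values of single genes under alternatives, 14 had no adjusted p, 57 stayed over the threshold of 0.05, and 24 passed it, 7 with no filter, 6 with the likelihood ratio test, 5 with DESeq2 and 6 without library 9.

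The 8 genes had 0 higher calls, against 7 with no filter on low counts, 6 with the likelihood ratio test and 5 with DESeq2, and 0 to 6 with each library left out, the 6 being without library 9. Against 48 higher and 31 lower genes over the whole table there were 29 and 20 with upper-quartile factors, 26 and 20 with library totals only, 1433 and 761 with no filter, 23 and 19 with at least 10 counts in every library, 812 and 663 with DESeq2 and 833 and 462 with the likelihood ratio test. With each library left out they ranged from 0 to 565 and from 0 to 302, with 0 and 0 without library 10 (1204 genes at an unadjusted p under 0.05); 212 and 211 without library 7, 565 and 302 without library 8, and 3 lower without library 9. The cause was not tested. A lone library was assumed to vary like the other genotype.

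For the lists, in the order of receptor signalling, transcription factors, other surface genes, germinal centre, and follicle stroma, the higher calls were 13, 10, 20, 11 and 13 with no filter, 9, 8, 16, 6 and 4 with DESeq2, and 9, 7, 18, 4 and 5 with the likelihood ratio test, against 0 in each. Leaving out antigen receptor segments gave 1 for receptor signalling. With each library left out the ranges were 0 to 2, 0 to 3, 0 to 6, 0 to 1 and 0 to 2. The median log2 change of the 8 ranged from 2.43 (without library 10) to 7.67 (without library 9), and the fitted median of those tested from 4.35 to 8.50. The filter of at least 10 counts in every library left 3 of the 8 and gave no median of the 8. No filter moved the median of all genes by 0.154. Depth limits the WT values of Ms4a1, Pax5, Cr2 and Fcer2a, which were at or under 3 counts.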

Other observations

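Beside the B cell genes, library 10 was high for single genes of other lists. Lyz2, a lysozyme of myeloid cells, was at 12.4, 46.0 and 53.1 CPM in libraries 7, 8 and 9 and at 410 CPM in library 10, while the complement gene C1qa of macrophages was at 12.1, 42.6, 45.8 and 77.2 CPM. Vcam1, an adhesion molecule of follicle stroma and vessels, was at 1.92, 5.83 and 5.69 CPM and at 35.7 CPM in library 10. Of 9 genes of dividing cells, 8 were higher in library 10 than in library 9, with a median ratio of 1.24 and Top2a at 162 and 184 CPM. WT library 7 was below WT library 8 for Jchain (36.9 against 169 CPM), Csf1r (11.9 against 36.9 CPM) and Itgax (1.79 against 9.52 CPM), so that the WT libraries also differed in immune genes. Lyz2, Vcam1 and the last 3 genes were chosen after their values were seen.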
